A study of Mus musculus with 12 samples.

Results

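The Id proteins and the E proteins that they bind form one of the basic switches of blood cell development. E proteins are basic helix-loop-helix transcription factors: they pair through the helix-loop-helix and use the basic region next to it to grip a short DNA motif, the E-box (CANNTG). Id proteins keep the helix-loop-helix but lack the basic region, so that an E protein held by an Id protein cannot bind DNA. In the marrow, E proteins favour lymphoid and dendritic fates and slow the cell cycle, and Id proteins counter them.

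The 6 genes described here are 3 Id genes (Id1, Id2, Id3) and 3 E protein genes (Tcf3, Tcf4, Tcf12), given as a list of names and not chosen by a cut on measured values. All 6 were found among the 41214 genes of the count files, and 5 of them passed the filter on low counts, out of 13822 genes tested. Id1 and Id2 are known from other work as genes that Gfi1, a zinc finger repressor, holds down, which makes a reduction of Gfi1 a natural setting in which to look at them.

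RNA was sequenced from leukaemic cells in 4 libraries. The 2 groups were Gfi1 KD, labelled homozygous (KD/KD in the chromatin samples of the series, n = 2), and Gfi1 KI, labelled heterozygous (KI/wt in the chromatin samples, n = 2). All 4 libraries are labelled with the strain C57/BL6 NUP98-HOXD13, so both groups carry the NUP98-HOXD13 fusion, a leukaemia transgene that is driven in blood cells by Vav1 sequences. The labels give neither age nor sex nor any sorting of the cells. The design text of the series compares 2 mice of each genotype, but the labels do not tie a library to a mouse. The p-values therefore measure the spread between these libraries. The KI group is heterozygous while the KD group is homozygous, so that allele and copy number cannot be told apart.

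The libraries were not alike. Counts on genes came to 11934542 and 10263454 in KD replicates 1 and 2, and to 4581593 and 10869534 in KI replicates 1 and 2. Satellite and rRNA-like loci held 21.8% and 22.9% of these counts in KD replicates 1 and 2, against 41.2% and 46.7% in KI replicates 1 and 2. KI replicate 1 stood apart. Of its uniquely aligned reads 88.3% matched no feature counted for a gene, against 63.2% to 68.3% in the other 3 libraries. Odorant, pheromone and taste receptor genes summed to 979 CPM (counts scaled to a common library size with TMM factors) in it, against 143 to 237 CPM. Fold changes without that library are given for the tested members, and for each list median and each list gene named by the rule that it turned or moved by over 1.5 times. Xist had 9795 counts in KD replicate 2 and 6613 in KI replicate 2, while its antisense partner Tsix had 10 in each, so the counts follow the sense strand there. Xist was low in both replicates 1 (6 counts in KD, 56 in KI).

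Gfi1 itself, the targeted gene, lay at 7.22 and 1.12 CPM in KD, against 36.2 and 89.0 CPM in KI. The 2 groups did not overlap. edgeR's quasi-likelihood fit gave a log2 fold change, taken as KD minus KI throughout, of -3.89 ± 0.95 (SE), with an adjusted p = 0.518. In published strains with these names the altered alleles express the human GFI1 protein, which counts on the mouse gene do not measure. All 8 markers listed for myeloid blasts were above 0 in all 4 libraries, and their summed level was 3498 and 3395 CPM in KD and 2973 and 2956 CPM in KI. Among them Kit, the stem cell factor receptor, lay at 34.1 and 27.0 CPM in KD and 55.2 and 52.7 CPM in KI, and Cd34, a progenitor surface protein, at 68.4 and 120 CPM in KD and 32.5 and 6.41 CPM in KI.

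Of the 5 tested members, Tcf4 was the only one whose KD values both exceeded the KI values, with a fitted ratio of 1.71. Id1 and Id2 overlapped between the genotypes, with log2 fold changes of -0.22 and -0.16 (0.26 and 0.24 with library size as the only scaling). Tcf3 was level at -0.03 (0.43 with that scaling), Tcf12 had a log2 fold change of -0.18 (0.24 with that scaling), and Id3 was barely present. After Benjamini-Hochberg adjustment over all genes, none of the 5 passed at 0.05 in edgeR. The same test called 0 of 13822 genes (0% higher and 0% lower in KD), while 1331 genes (9.63%) had an unadjusted p under 0.05, 1.29% higher and 8.34% lower in KD. Of those 1331, 13.4% were higher in KD, against 77.2% of the genes under that p with library size as the only scaling. None of the 5 members was among those 1331. DESeq2 called 144 genes and limma-voom 0, no member among them. With 1 library left out and the filter rerun, edgeR called 48 or 14 genes (KD replicate 1 or 2 left out) and 316 or 4130 genes (KI replicate 1 or 2 left out). In bulk RNA, fewer cells of a type and less RNA per cell cannot be told apart, for these values and all that follow.

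**Figure D1:**
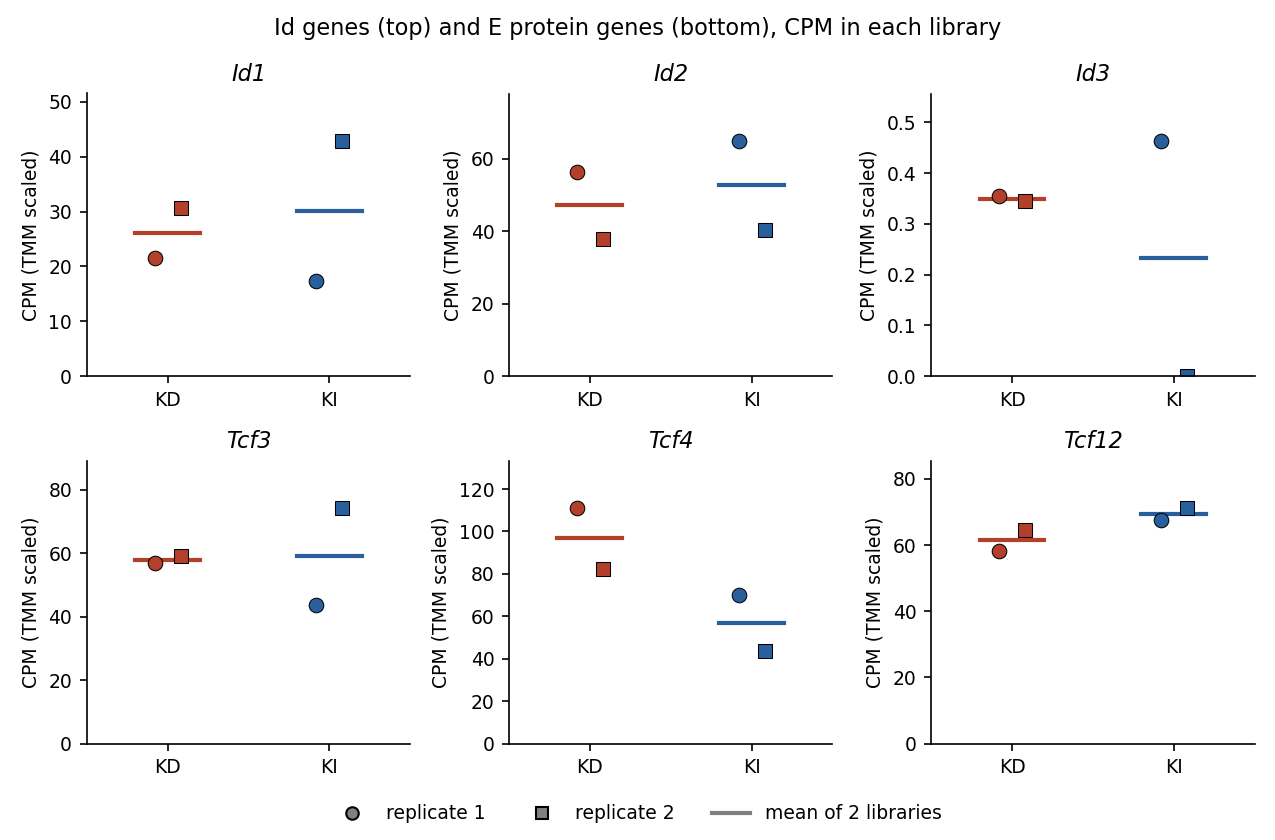
CPM of each Id gene (top) and each E protein gene (bottom) in KD (left, red) and KI (right, blue) libraries, with circles for replicate 1, squares for replicate 2 and a line at the mean of the 2 libraries. The vertical scale differs between panels and starts at 0. Tcf4 is the panel in which both KD points (111 and 82.4 CPM) lie above both KI points (70.0 and 43.5 CPM), and Id3 stays below 0.5 CPM throughout.

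Id2 is needed for natural killer and innate lymphoid cells and is also made by mature myeloid cells. Id2 (ENSMUSG00000020644, GRCm38 chromosome 12, 25093799 to 25096092) lay at 56.3 and 37.8 CPM in KD replicates 1 and 2, against 64.9 and 40.2 CPM in KI replicates 1 and 2. In each genotype the library of replicate 1 was the higher one, and the groups overlapped almost fully. The group means were 47.1 ± 13.1 CPM in KD and 52.6 ± 17.5 CPM in KI (SD, n = 2 each). The fitted log2 fold change was -0.16 ± 0.38 (SE), with edgeR adjusted p = 0.981. Its 95% interval ran from 0.467-fold to 1.73-fold. The value was 0.38 without KI replicate 1 and -0.35 without KI replicate 2, so its sign rests on which KI library is kept. The 7 natural killer and innate lymphoid markers summed to 65.0 and 71.4 CPM in KD and 170 and 218 CPM in KI. Most of that sum was Il18rap, at 41.0 and 49.1 CPM in KD and 117 and 171 CPM in KI, while Ncr1 had 1 and 0 counts in KD and 6 and 0 in KI. All 4 markers that were tested lay lower in both KD libraries, as did 23.5% of all genes tested. The median log2 fold change of these 4 markers was -1.81, and -0.95 without KI replicate 1. Their part in the Id2 value was not tested.

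Id1 responds to BMP signals in many cell types and is held down by Gfi1 in blood progenitors. Id1 (ENSMUSG00000042745, chromosome 2, 152736251 to 152737410) lay at 21.6 and 30.7 CPM in KD, against 17.4 and 42.9 CPM in KI. The KI libraries were both the lowest and the highest of the 4, with the KD libraries between them. The means were 26.1 ± 6.43 CPM in KD and 30.2 ± 18.1 CPM in KI (SD, n = 2 each). The fitted log2 fold change was -0.22 ± 0.50 (SE), edgeR adjusted p = 0.980, with a 95% interval from 0.361-fold to 2.05-fold. It was -0.59 without KI replicate 1 and 0.67 without KI replicate 2. Against KI replicate 1 alone both KD libraries were higher, and against KI replicate 2 alone both were lower.

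The spread of Id1 and Id2 followed the replicate number more than the genotype. Id2 made up 72.0% of the counts on the 3 Id genes in KD replicate 1 and 55.0% in KD replicate 2, against 78.4% in KI replicate 1 and 48.4% in KI replicate 2. The exact (Clopper-Pearson) 95% intervals were 69.2% to 74.6%, 51.4% to 58.4%, 73.8% to 82.6% and 44.6% to 52.1%, and they cover counting error only. Both replicates 1, the libraries with few Xist counts, thus lay above both replicates 2. The log2 ratio of Id2 to Id1 counts differed between the genotypes by -0.06 (KD minus KI), far less than between replicates of 1 genotype.

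Id3, which is high in lymphocytes and endothelium, was close to absent. Id3 (ENSMUSG00000007872, chromosome 4, 136143822 to 136145392) had 5 and 4 counts in KD and 2 and 0 counts in KI. It did not pass the low-count filter and has no fitted fold change. A count of 0 in KI replicate 2 allows up to 0.356 CPM, and the values in KD were 0.354 and 0.346 CPM, so no difference was detectable at this depth. The pooled ratio, KD over KI, was 2.23, with an exact 95% interval from 0.462 to 21.2 for counting error alone. Id4, the fourth Id gene and no member of the set, was also scarce, with 6 and 3 counts in KD and 5 and 7 in KI. Its CPM lay lower in both KD libraries, and its pooled ratio was 0.372 (exact 95% interval 0.138 to 0.961, counting error alone), but it did not pass the filter and was not tested across libraries. Endothelial and stromal markers summed to 67.9 and 91.9 CPM in KD and 105 and 51.0 CPM in KI. Of that sum Pecam1 held 54.2 and 80.8 CPM in KD and 35.3 and 36.8 CPM in KI (log2 0.91 ± 0.32). It was the 1 positive gene of the 6 tested, and the other 5 were negative with all libraries in the fit. The median log2 fold change of the 6 was -1.81, which became -0.21 without KI replicate 1. Cdh5, the junction protein of endothelium, had 1 and 3 counts in KD and 5 and 2 in KI.

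The sequences before the start sites of Id2 and Id3 are printed because these genes share the helix-loop-helix role, yet one was well counted and the other was nearly silent in the same cells. They are the 250 bases before each RefSeq start on GRCm38.p6, 5′ to 3′ on the strand of the gene: chr12:25096093-25096342 (minus strand) for Id2 and chr4:136143572-136143821 (plus strand) for Id3. Capitals mark 2 motifs, the Gfi1 core AATC, which reads GATT where it lies on the other strand, and the E-box CANNTG.
Id2: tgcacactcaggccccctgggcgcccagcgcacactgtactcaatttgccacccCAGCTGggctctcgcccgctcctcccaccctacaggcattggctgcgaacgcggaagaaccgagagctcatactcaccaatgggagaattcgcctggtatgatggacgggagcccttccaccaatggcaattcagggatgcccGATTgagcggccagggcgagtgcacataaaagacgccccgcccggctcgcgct
Id3: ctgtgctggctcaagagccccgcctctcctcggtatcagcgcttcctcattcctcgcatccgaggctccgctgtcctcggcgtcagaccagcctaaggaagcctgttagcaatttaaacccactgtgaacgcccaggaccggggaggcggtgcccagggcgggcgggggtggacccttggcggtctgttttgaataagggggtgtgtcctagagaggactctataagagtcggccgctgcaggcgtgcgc

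The Id2 window held 1 Gfi1 core, whose first printed base lies at position -53 from the start, and 1 E-box at -196. The Id3 window held neither. Both motifs are common: of 32851 such windows in the RefSeq table, 69.0% held at least 1 AATC on either strand and 66.2% at least 1 CANNTG. The longer Gfi1 core AAATCA, which contains AATC, was in neither window and in 12.4% of all. GGCGCC, a site of the BMP effectors SMAD1 and SMAD5, occurred once before Id2, at -231, not before Id3, and in 9.59% of all windows. The Tcf3 window (chromosome 10, 80433636 to 80433885) precedes a RefSeq start that lies inside the gene span given for Tcf3 here. In it there were 2 Gfi1 cores and 1 E-box, the E-box at -54, and 38.7% of all windows held 2 or more cores. Each Tcf12 window searched held either 2 cores and no E-box, or 1 E-box and no core. For Id1 no RefSeq window was found. A match is a run of letters and not evidence of binding.

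Tcf4 encodes E2-2, the E protein that plasmacytoid dendritic cells depend on and that is also made in myeloid progenitors. Tcf4 (ENSMUSG00000053477, chromosome 18, 69343429 to 69687967) lay at 111 and 82.4 CPM in KD replicates 1 and 2, against 70.0 and 43.5 CPM in KI replicates 1 and 2. Both KD libraries lay above both KI libraries, as they did for 14.5% of all genes tested. The means were 96.7 ± 20.2 CPM in KD and 56.8 ± 18.7 CPM in KI (SD, n = 2 each). The fitted log2 fold change was 0.77 ± 0.35 (SE), a ratio of 1.71, with unadjusted p = 0.0755 and edgeR adjusted p = 0.555. The 95% interval of the log2 fold change, from -0.11 to 1.65, includes 0. The libraries of 1 genotype differed from each other by 1.35-fold in KD and 1.61-fold in KI. The KI value is nearly the size of the difference between the genotypes, and the KD value is smaller.

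The direction of Tcf4 was the same within each replicate number. Among the libraries with few Xist counts the log2 ratio was 0.66, and among those with many it was 0.92. Its fitted value was 1.30 without KI replicate 1 and 0.57 without KI replicate 2, and 0.66 without KD replicate 1 and 1.06 without KD replicate 2. It stayed positive under all 14 alternative settings, and the lowest adjusted p among these was 0.145, without KI replicate 1. No setting brought its adjusted p past the threshold of 0.05, while its unadjusted p was 0.0349 with library size as the only scaling and 0.00933 without KI replicate 1.

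Tcf3 encodes E12 and E47, the E proteins that B cell development depends on first. Tcf3 (ENSMUSG00000020167, chromosome 10, 80409541 to 80433976) lay at 57.0 and 59.1 CPM in KD, against 43.8 and 74.3 CPM in KI. The KD libraries were nearly equal and lay between the KI libraries. The log2 fold change was -0.03 ± 0.35 (SE), edgeR adjusted p = 0.999, with a 95% interval from 0.540-fold to 1.78-fold. It was -0.22 without KI replicate 1 and 0.50 without KI replicate 2.

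Tcf12 encodes HEB, which acts with E2A proteins in T cell precursors. Tcf12 (ENSMUSG00000032228, chromosome 9, 71844252 to 72111893) had the least spread over the 4 libraries, at 58.3 and 64.6 CPM in KD, against 67.7 and 71.2 CPM in KI. Both KD libraries lay below both KI libraries, as they did for 23.5% of all genes tested, but the gap was small. The log2 fold change was -0.18 ± 0.26 (SE), edgeR adjusted p = 0.951, with a 95% interval from 0.561-fold to 1.40-fold. It was -0.08 without KI replicate 1 and -0.05 without KI replicate 2, and 0.24 with library size as the only scaling. Of the tested members 2 of 5, Tcf4 and Tcf12, thus had groups that did not overlap, against 38.0% of all genes tested. That share is near the background and is no result about the set.

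**Figure D2:**
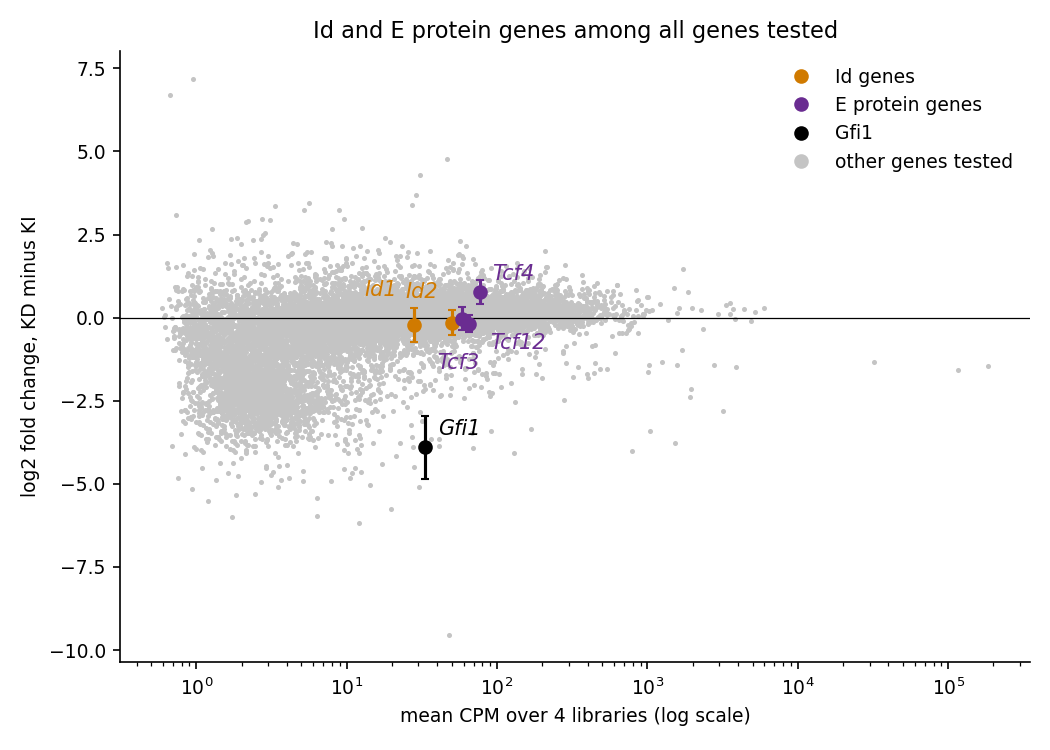
Fitted log2 fold change (KD minus KI, vertical) against mean CPM over the 4 libraries (horizontal, log scale) for all 13822 genes tested in grey, with Id genes in orange, E protein genes in purple and Gfi1 in black, bars showing ± SE. Tcf4 at 0.77 is the member farthest from 0, the other 4 tested members lie between -0.22 and -0.03 (above 0 for all 4 with library size as the only scaling, and for Tcf3 also with RLE scaling), and Gfi1 lies at -3.89.

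Counts of different genes cannot be set against each other as levels here, since no exon lengths were used, but a share of counts can be followed from library to library without any scaling. Tcf4 took 49.0% and 40.0% of the counts on the 3 E protein genes in KD, against 38.6% and 23.0% in KI. The exact 95% intervals were 47.3% to 50.8% and 38.0% to 42.0% in KD, and 35.1% to 42.1% and 21.0% to 25.2% in KI. The values of the genotypes did not overlap, but KD replicate 2 and KI replicate 1 differed by less than their counting error. Tcf12 took 25.8% and 31.3% in KD, against 37.3% and 37.7% in KI. Tcf3 showed no such order, with 25.2% and 28.7% in KD and 24.1% and 39.3% in KI.

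Per Tcf12 count there were 1.90 and 1.28 Tcf4 counts in KD, against 1.03 and 0.612 in KI. The mean log2 ratio differed by 0.97 (KD minus KI), and between 0.59 and 1.35 when each library in turn was left out. Per Tcf3 count there were 1.95 and 1.39 Tcf4 counts in KD, against 1.60 and 0.586 in KI, and these overlapped.

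The Id genes together took a smaller share of the counts on all 6 genes in KD. The share was 25.7% (exact 95% interval 24.4% to 27.0%) and 25.0% (23.5% to 26.6%) in KD replicates 1 and 2, against 31.3% (28.6% to 34.1%) and 30.6% (28.7% to 32.5%) in KI replicates 1 and 2. The libraries of each genotype lay within 1 percentage point of each other, and the intervals of the genotypes did not overlap. With Tcf4 left out, the share was 40.4% and 35.8% in KD, against 42.6% and 36.4% in KI, and the genotypes overlapped. The separation in the share thus rested on the Tcf4 counts. Summed Id genes came to 78.3 and 68.9 CPM in KD and 82.8 and 83.2 CPM in KI, and summed E protein genes to 226 and 206 CPM in KD and 182 and 189 CPM in KI. These shares are a description of 4 libraries, and no test was run on them. An exact two-sided permutation test of 2 against 2 cannot go below 0.333.

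**Figure D3:**
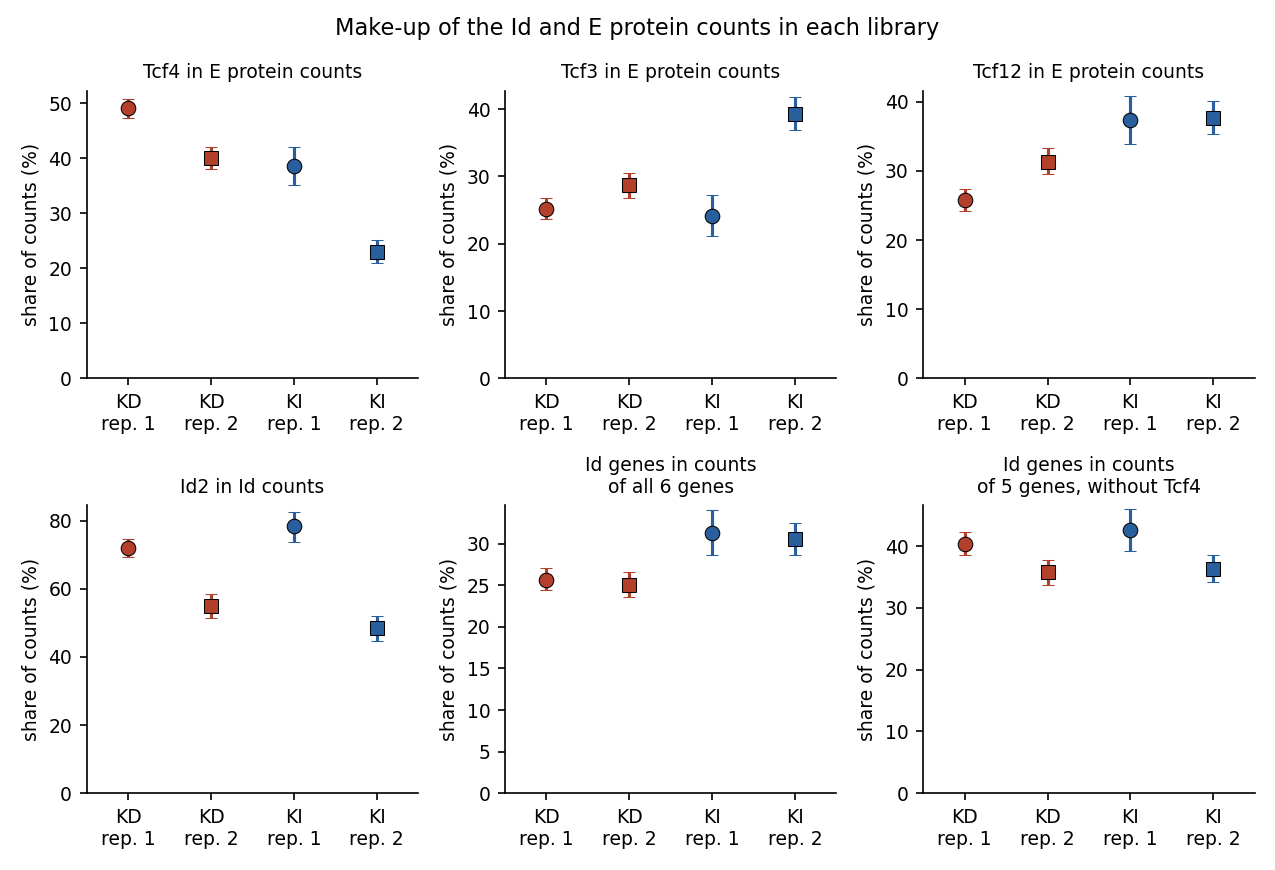
Share of counts (%, vertical, from 0) in each library, KD in red at left and KI in blue at right, with exact 95% intervals for counting error. The top row splits the E protein counts into Tcf4, Tcf3 and Tcf12, and the bottom row shows Id2 within the Id counts, the Id genes within the counts of all 6 genes, and the same without Tcf4. The Id share of all 6 genes separates the genotypes (25.7% and 25.0% in KD, 31.3% and 30.6% in KI), and without Tcf4 it does not.

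Partners and cofactors of the E proteins went both ways, between -2.12 and 1.12. Of 18 listed genes 12 were tested, 6 with a positive and 6 with a negative fold change, and their median log2 fold change was 0.08, against -0.06 for all genes tested. Leaving out KI replicate 1 gave a median of 0.02 (12 genes), and leaving out either KD library gave -0.28 (16 genes). The filter was rerun each time, here and in the lists below, so that genes with few counts could enter. Over the 12 genes alone the middle values were 0.04 and 0.19 without KD replicate 1, and -0.11 and 0.20 without KD replicate 2. No gene of this list, or of any other list below, passed the test. Across all genes tested 44.5% were positive and 55.5% negative. Cbfa2t3, the corepressor ETO2 that sits on E protein complexes, lay at 49.4 and 40.3 CPM in KD, against 36.2 and 5.69 CPM in KI. The large gap was to KI replicate 2, and the log2 fold change of 1.12 ± 0.81 (SE, edgeR adjusted p = 0.762) became 0.41 without that library and 3.12 without KI replicate 1. Tal1, the blood stem and erythroid bHLH factor that pairs with E proteins, lay at 7.15 and 0.605 CPM in KD, against 20.2 and 13.9 CPM in KI (log2 -2.12 ± 1.05, edgeR adjusted p = 0.578). Its level in KD replicate 2 was far below the other 3 libraries, as were the erythroid markers. The 12 found of 13 listed summed to 67.6 and 3.54 CPM in KD and 618 and 534 CPM in KI. All 12 lay lower in both KD libraries, against 23.5% of all genes tested, with Hba-a1 and Epor at 0 counts in KD replicate 2. The part of erythroid RNA in the Tal1 value was not tested. Ldb1, the adaptor that links LIM proteins to these complexes, and Ssbp3, its stabiliser, overlapped between the genotypes (log2 -0.42 ± 0.37 and -0.43 ± 0.36, with Ldb1 at -0.66 without KI replicate 1).

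BMP signals turn Id genes on through SMAD factors, and this pathway went both ways. Of 20 listed genes 13 were tested, 6 positive and 7 negative, with a median of -0.02 (without KI replicate 1 it was 0.45 over 13 genes, and without KI replicate 2 it was -0.65 over 19). Over the 13 genes alone the median without KI replicate 2 was 0.23, so the negative value came with the genes that the rerun filter added. Smad7, an inhibitor that the pathway itself induces, lay at 18.3 and 13.0 CPM in KD, against 26.4 and 26.7 CPM in KI (log2 -0.77 ± 0.35, edgeR adjusted p = 0.549). Smurf1, a ubiquitin ligase that removes SMADs, lay at 16.6 and 15.8 CPM in KD, against 19.0 and 31.1 CPM in KI. Bambi, a decoy receptor, lay the other way, at 15.2 and 24.0 CPM in KD and 9.28 and 14.9 CPM in KI (log2 0.69 ± 0.44). Bmpr2, a BMP receptor, overlapped (log2 1.45 ± 0.91), and its value was 3.09 without KI replicate 1 and 0.31 without KD replicate 1. The ligands Bmp2, Bmp4 and Bmp6 had between 1 and 21 counts in any library.

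Other regulators of the Id genes and of Id protein went both ways. All 14 listed genes were tested, Gfi1 among them, 6 positive and 8 negative, with a median of -0.06. With 1 library left out the median was 0.07 (KD replicate 1), -0.19 (KD replicate 2), -0.26 (KI replicate 1) or 0.34 (KI replicate 2). Of the 14, 2 lay higher and 5 lower in both KD libraries, against 14.5% higher and 23.5% lower among all genes tested. The lower ones were Gfi1, Hif1a, Gfi1b (the paralogue of Gfi1, log2 -1.36 ± 0.63) and the zinc finger factors Egr1 (-1.33 ± 0.79) and Egr2 (-1.57 ± 0.90, and -0.60 without KI replicate 1). Cebpb, a bZIP factor of monocytes and stressed granulocyte progenitors, lay at 285 and 346 CPM in KD, against 177 and 197 CPM in KI (log2 0.75 ± 0.29, edgeR adjusted p = 0.518). Nfil3, a bZIP factor upstream of Id2 in innate lymphoid cells, lay at 53.3 and 39.7 CPM in KD, against 29.0 and 25.5 CPM in KI (log2 0.77 ± 0.31, edgeR adjusted p = 0.521). Both had groups that did not overlap, while those of Id2 overlapped. Hif1a, the oxygen sensor factor, lay slightly lower in KD (log2 -0.33 ± 0.28).

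Other factors that bind E-box letters were split. Of 15 listed genes 9 were tested, 4 positive and 5 negative, with a median of -0.45. Leaving out KI replicate 1 gave -0.34 (9 genes), and leaving out KD replicate 1 gave -1.28 (13 genes). Over the 9 genes alone the median without KD replicate 1 was -0.16, so the lower value came with the genes that the rerun filter added. Zeb1, a zinc finger repressor of E-box sites, lay at 12.3 and 8.81 CPM in KD, against 32.2 and 16.8 CPM in KI (log2 -1.21 ± 0.46, edgeR adjusted p = 0.518; -0.52 without KI replicate 1). Bhlhe40, a repressive bHLH factor, lay at 9.27 and 4.75 CPM in KD and 12.5 and 12.8 CPM in KI. Usf1, a leucine zipper bHLH activator, lay at 85.7 and 97.3 CPM in KD and 56.1 and 61.6 CPM in KI (log2 0.64 ± 0.27, edgeR adjusted p = 0.530). Mnt, a repressor of the Myc network, lay at 42.0 and 29.8 CPM in KD and 23.9 and 25.2 CPM in KI.

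Genes that E proteins are known to switch on in lymphocytes were mostly negative. Without KI replicate 1 the B list median turned positive, and the T list median did so only with a gene that the rerun filter added. Of 16 B lineage targets 7 were tested, 1 positive and 6 negative, with a median of -1.04, which was 1.11 over 8 genes without KI replicate 1. Il7r, the interleukin 7 receptor, lay at 2.19 and 1.56 CPM in KD, against 22.7 and 3.08 CPM in KI, so that its log2 value of -2.76 ± 1.01 became -0.56 without that library. Foxo1 and Cd79b overlapped (log2 0.46 ± 0.69 and -0.38 ± 0.54, and 1.78 and -0.78 without KI replicate 1). B cell markers summed to 115 and 172 CPM in KD and 99.5 and 116 CPM in KI. Most of that sum was Ighm, the IgM heavy chain, at 97.0 and 151 CPM in KD and 59.6 and 82.5 CPM in KI. With all libraries in the fit the other 4 tested B cell markers had negative fold changes. The median of the 5 was -1.58, which became -0.16 without KI replicate 1. Pax5, the factor that commits cells to the B lineage, had 4 and 0 counts in KD and 6 and 7 in KI. Of 11 T lineage targets 8 were tested, 1 positive and 7 negative, with a median of -1.73, which was 0.38 over 9 genes without KI replicate 1. Of these 9, Ptcra (1.24, with 0 and 13 counts in KD and 1 and 2 in KI) entered only when the filter was rerun. Over the 8 genes alone the middle values were then -0.96 and 0.38, so that their median stayed negative. Notch1, the 1 positive gene with all libraries in the fit, lay at 218 and 214 CPM in KD and 180 and 174 CPM in KI (log2 0.29 ± 0.26, and 0.45 without KI replicate 1). Cd3e, a signalling subunit of CD3, lay at 1.34 and 0.518 CPM in KD and 6.26 and 37.3 CPM in KI (log2 -4.52 ± 1.04, edgeR adjusted p = 0.518), and stayed negative without KI replicate 1 (-5.12). Bcl11b and Lef1, 2 further T cell factors, overlapped and turned positive without KI replicate 1 (0.38 and 0.78). Genes of low level leaned negative across the table: the median log2 fold change was -1.27 over the 3745 tested genes with a mean under 5 CPM and 0.04 over the other 10077. Of the tested targets 4 of 7 in the B and 4 of 8 in the T list were under 5 CPM. T cell markers summed to 8.28 and 11.1 CPM in KD and 47.8 and 63.2 CPM in KI, and all 9 were above 0 in each library. Cd3e alone held 37.3 CPM of the sum in KI replicate 2. Cd3e and Cd4 are in both the marker and the T target list, so the lists are not separate. The part of T cells in the B and T target lists was not tested.

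Plasmacytoid dendritic cell genes were split, and the sign of their median rested on KI replicate 1. Of 12 listed genes 9 were tested, 3 positive and 6 negative, with a median of -0.26 (0.87 over 9 genes without KI replicate 1). Siglech, a defining surface gene of these cells, had 10 and 8 counts in KD and 32 and 3 in KI, and Spib had 5 and 10 in KD and 20 and 5 in KI. Irf8, a factor shared with monocytes, lay at 394 and 556 CPM in KD, against 237 and 284 CPM in KI (log2 0.87 ± 0.33, edgeR adjusted p = 0.518). Tlr9 lay at 20.4 and 13.6 CPM in KD and 12.5 and 5.58 CPM in KI, also without overlap (log2 0.93 ± 0.54, and 1.76 without KI replicate 1). Runx2 lay the other way (log2 -0.58 ± 0.38, and -0.21 without KI replicate 1), with each KD value under each KI value. Irf7 overlapped (17.7 and 6.74 CPM in KD, 55.4 and 6.17 CPM in KI), and its log2 value of -1.32 ± 1.03 became 1.15 without KI replicate 1. The 8 monocyte markers summed to 6693 and 5152 CPM in KD and 6158 and 3036 CPM in KI, all above 0 in each library, and this sum, most of it Lyz2, overlapped. With all libraries in the fit all 8 had positive fold changes, against 44.5% of all genes tested, with a median of 0.71 beside 0.77 for Tcf4. Their median stayed positive with each library left out (0.63 to 1.47). Some single markers turned negative without KI replicate 2 or without either KD library. Of the 8, 4 lay higher in both KD libraries, against 14.5% of all genes tested. Without KI replicate 1 the median of the 8 was 1.47, beside 1.30 for Tcf4. Mature neutrophil markers summed to 3474 and 1599 CPM in KD and 15835 and 16900 CPM in KI. Of the 9, 8 lay lower in both KD libraries, against 23.5% of all genes tested. The part of these cells in the Tcf4 value was not tested.

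Inhibitors of the cell cycle and of cytokine signals, which E proteins raise and Id proteins lower in other settings, were mixed. Of 8 listed genes 7 were tested, 2 positive and 5 negative, with a median of -0.15, which was 0.31 without KI replicate 1 and 0.05 without KD replicate 2. Cdkn2c, the p18 inhibitor of cyclin-dependent kinases, lay at 71.3 and 94.5 CPM in KD, against 39.7 and 49.0 CPM in KI (log2 0.90 ± 0.30, edgeR adjusted p = 0.518). Cdkn1a, the p21 gene, lay at 6.93 and 7.86 CPM in KD and 9.51 and 6.53 CPM in KI, and Cdkn1b, the p27 gene, at 89.5 and 75.3 CPM in KD and 115 and 68.8 CPM in KI. Both overlapped, and without KI replicate 1 their log2 values were 0.31 and 0.40. Socs3, a feedback inhibitor of cytokine receptors, overlapped as well (log2 0.68 ± 0.68, and 1.70 without KI replicate 1). Cdkn1c, the p57 gene (log2 -1.95 ± 0.70), and Socs1, another cytokine feedback inhibitor (-0.99 ± 0.64), were under 5 CPM on average and lay lower in both KD libraries.

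**Figure D4:**
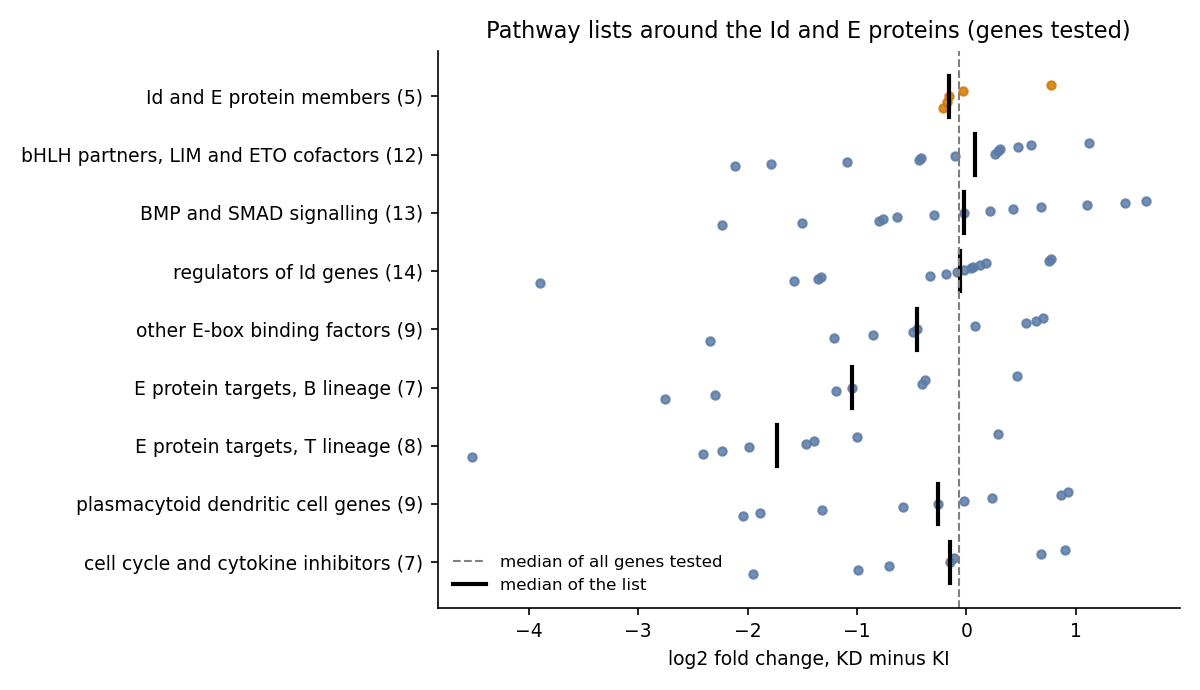
Fitted log2 fold change (KD minus KI, horizontal) of each tested gene in the set (top, orange) and in the lists around it (blue), with a black bar at each list's median and a dashed line at the median of all genes tested (-0.06). The number of genes tested is in brackets. The lymphoid target lists lie farthest to the left (medians -1.04 and -1.73). Without KI replicate 1 the B lineage median turns positive, and the T lineage median does so only with a gene that the rerun filter added.

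The genes whose pattern over the 4 libraries was most like each member were found by the distance between centred log2 CPM profiles, over 9599 named genes with a mean of at least 5 CPM. Nearest to Tcf4 were Kremen1 (29.2 and 22.8 CPM in KD, 18.3 and 11.2 CPM in KI), Ppard and Zfp710, at distances of 0.0706, 0.0968 and 0.0975. Nearest to Id2 was Hnrnpu (157 and 105 CPM in KD, 179 and 112 CPM in KI), at 0.0129, followed by Zfp397 and Wasl. Id1 lay nearest to Chrac1 (0.0209), Tcf3 to Adi1 (0.0313) and Tcf12 to Scarna13 (0.0121).

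**Figure D5:**
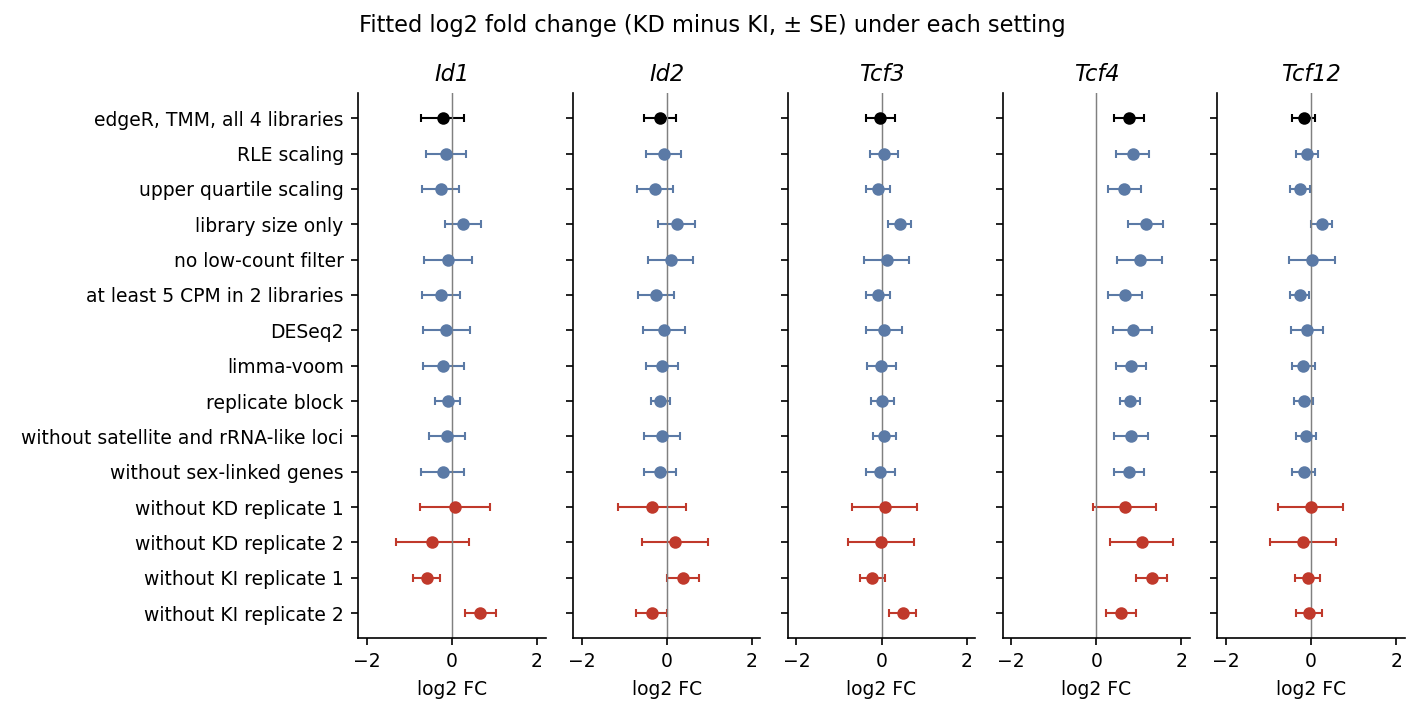
Fitted log2 fold change (KD minus KI, horizontal, ± SE) of the 5 tested members under the main setting (black, top), other scalings, filters and tools (blue) and with 1 library left out (red). Tcf4 stays positive in every row, between 0.57 and 1.30, while Id1, Id2, Tcf3 and Tcf12 lie on both sides of 0.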

How the data were processed

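RNA counts per Ensembl gene were deposited by the authors for 4 libraries (TruSeq Stranded mRNA, per the labels), and per the submitters' processing notes the build was GRCm38 and the tools included HTSeq, DESeq, SAMtools and TopHat2 2.0.10. The sources used here do not give the strand setting or the annotation release. Closing entries that name no gene, 93.2% to 97.9% of each file's total, were left out. Symbols matched 40254 of 41214 genes. The 8 chromatin libraries are not analysed here: the 1616 columns of their tables name no antibody or mouse.

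In R 4.3.3, genes kept by filterByExpr of edgeR 4.0.16 were scaled by TMM and tested with glmQLFit and glmQLFTest (genotype only, Benjamini-Hochberg over all genes tested, threshold 0.05). The script was tested on simulated counts with less spread between libraries than here (common dispersion 0.204 in these data). That check does not measure how well genes are called in these data. SE is the fold change divided by the root of the F statistic. In the count shares, the planned division by length was left out, since the annotation used gives gene spans and no exon lengths. The members and lists were chosen with earlier results of these data known. Named were the members, Gfi1, in each list the up to 4 genes of lowest p with a mean of at least 5 CPM, and the 3 nearest profiles per member. Genes named outside it (Cdh5, Pecam1, Il18rap, Ncr1, Ptcra, Cd4, Siglech, Spib, Pax5, Kit, Cd34, Id4, Gfi1b, Egr1, Egr2, Ighm, Lyz2, Cdkn1c, Socs1, the Bmp ligands, Hba-a1 and Epor) were picked after their values were seen. Alternatives were other scalings and filters, DESeq2 1.42.0, voom of limma 3.58.1, the replicate number as a block, leaving out repeat loci or sex-linked genes, and leaving out each library.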

Additional observations from a re-analysis of the deposited data

How the results depend on the processing

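Tcf4 was positive under all 14 alternatives (0.57 to 1.30) and no member passed the threshold in any of them. The sign of the smaller values depended on the setting, and the cause was not tested. With library size only, which raised fold changes by a median of 0.42 over all genes, Id1 was 0.26, Id2 0.24, Tcf3 0.43 and Tcf12 0.24. Satellite and rRNA-like loci held a larger share of the gene counts in KI (41.2% and 46.7%) than in KD (21.8% and 22.9%). The part of these loci in that rise was not tested. With no low-count filter Id2 was 0.091, Tcf3 0.12 and Tcf12 0.020. Tcf3 was also 0.061 with RLE scaling, 0.060 with DESeq2, 0.065 without satellite and rRNA-like loci, and 0.020 with the replicate block. The unadjusted p of Tcf4 was 0.0129 with the replicate block. Leaving out 1 library, where the remaining library of that genotype borrows its spread from the other pair, gave -0.59 to 0.67 for Id1, -0.35 to 0.38 for Id2, -0.22 to 0.50 for Tcf3 and -1.06 to 0.94 for the log2 ratio of Id2 to Id1. Genes called were 169 with no filter, 144 with DESeq2, 7 with the replicate block, 14 to 4130 without 1 library, the filter being rerun (4130 without KI replicate 2), and 0 otherwise. By the labels, same-numbered libraries share only a number. Both replicates 1 had few Xist counts (6 in KD, 56 in KI) and both replicates 2 had many (9795 and 6613). The deviations of same-numbered libraries correlated at 0.27 across genes. The split of genes at an unadjusted p under 0.05 was 13.4% higher in KD with TMM, 77.2% with library size only, 37.8% with the replicate block, 26.3% with limma-voom and 56.9% without KI replicate 1. The log2 ratio of Id to E protein counts (KD minus KI) was -0.40, -0.33 with geometric means and -0.084 with Tcf4 left out, both chosen after seeing the data, and -0.42 to -0.37 without 1 library. Division by transcript length was not run. Depth limits Id3, and KI replicate 1 had the fewest counts.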
